A study of Mus musculus with 8 samples.

Results

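Ubiquitin ligases with a known place in striated muscle are described here by 10 genes, Asb2, Asb8, Asb11, Trim54, Trim55, Trim63, Fbxo32, Fbxo40, Kbtbd12 and Klhl31, in adult mouse ventricular cardiomyocytes. The genes were chosen by name, with their differences between the media of this experiment already known. All 10 are among the 11367 genes measured, with 16 of the 21301 measured transcripts. Their levels and differences therefore stand as a description, no p value is printed for any of them, and counts of called genes that include them are not read as evidence. Ventricular cardiomyocytes from adult C57BL/6 mouse hearts were incubated for 24 hours in medium conditioned by CCR2+ cardiac macrophages (4 libraries) or in control M199 medium, a defined culture medium (4 libraries), before RNA sequencing.

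The conditioned medium came from macrophages of Ccr2gfp/+ mice, sorted from hearts 4 weeks after transverse aortic constriction (TAC), a pressure overload of the left ventricle. The gate was CD45+ Ly6C high CD11b+ CD64+ MHC-II high GFP+, and the sorted cells were cultured for 24 hours. Their medium was then collected, and the methods of the paper do not say whether it was cleared of cells. Both media held (–)-Blebbistatin, a myosin inhibitor that stops the cells from contracting, with insulin-transferrin-selenium (ITS) and CD lipid. FBS is named only for the M199 in which the macrophages were kept, so a difference in serum between the media is possible. The experiment asks how material released by macrophages recruited to the overloaded heart changes cardiomyocytes. Whether the 4 libraries of a medium stem from different animals is not stated, so p values here cover only the spread between libraries, which may be technical.

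A ubiquitin ligase (E3) picks the protein to be tagged with ubiquitin, which is passed on from an E1 activating and an E2 conjugating enzyme, and chains of ubiquitin send many proteins to the proteasome. The genes described here belong to families that recognise their targets in different ways. TRIM proteins of the muscle RING finger (MuRF) group carry a RING domain that binds the E2 directly, and they sit on the sarcomere. F-box, ASB and BTB-kelch proteins are receptors that bring a target to a cullin scaffold, which is Cul1 with Skp1 for F-box proteins, Cul5 with elongins B and C for ASB proteins, and Cul3 for BTB-kelch proteins. Trim63 (MuRF1) and Fbxo32 (atrogin-1) are best known as genes that rise when skeletal muscle wastes, under the control of FoxO transcription factors that insulin and IGF-1 signaling hold out of the nucleus.

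The values are FPKM, which count the fragments sequenced from a gene relative to its length and to all fragments aligned in that library, so levels of different genes can be set side by side. FPKM summed to 321363 to 387597 in the conditioned-medium libraries and to 313169 to 347784 in the control libraries, and the read depth per library is unknown. Conditioned-medium replicate 4 stood apart. The 13 mitochondrially encoded genes made up 63.0% of its summed FPKM, against 30.2% to 40.7% in the other 7 libraries, and its correlation with those libraries, across genes, was 0.908 to 0.942 on the log2(FPKM + 1) scale. The results on the ligases are therefore also given without it. The 26 cardiomyocyte markers summed to 7190 FPKM in conditioned-medium replicate 4, to 13250 to 16310 FPKM in conditioned-medium replicates 1 to 3 and to 12830 to 19050 FPKM in control libraries. Markers of other heart cells were present as well and are given with the comparison of the libraries. In bulk RNA, fewer cells of a type and less RNA per cell cannot be told apart.

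Asb2 had the lowest fold change of the 10 genes, and its transcripts begin at separate starts. ASB2 is the receptor of a Cul5 ligase whose known targets include the filamins, which cross-link actin, and its longer isoform, ASB2-beta, is the form known from muscle. The gene lies on chromosome 12 at 103321142 to 103356001 of GRCm38, on the minus strand. Transcript Asb2-201 has 10 exons and encodes 634 residues. Transcript Asb2-204 has 8 exons, begins 17628 bases further downstream in intron 2 of Asb2-201 and encodes 586 residues. The 250 bases before each start are shown because the transcript values that follow are split by start. They come from RefSeq promoters (GRCm38.p6), and the RefSeq starts lie 0 bases from the first base of Asb2-201 and 17 bases from that of Asb2-204. Capitals mark a match to the CArG consensus, the letters that serum response factor (SRF) binds, 64 bases before the upstream start. The downstream start has none of the searched motifs in the bases shown.

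Asb2 upstream start, chr12:103356002-103356251, minus strand, 5′ to 3′: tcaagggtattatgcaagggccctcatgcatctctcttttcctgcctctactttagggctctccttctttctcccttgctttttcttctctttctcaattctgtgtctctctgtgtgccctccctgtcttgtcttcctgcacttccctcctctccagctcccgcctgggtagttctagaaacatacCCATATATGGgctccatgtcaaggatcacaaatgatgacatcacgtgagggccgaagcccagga
Asb2 downstream start, chr12:103338391-103338640, minus strand, 5′ to 3′: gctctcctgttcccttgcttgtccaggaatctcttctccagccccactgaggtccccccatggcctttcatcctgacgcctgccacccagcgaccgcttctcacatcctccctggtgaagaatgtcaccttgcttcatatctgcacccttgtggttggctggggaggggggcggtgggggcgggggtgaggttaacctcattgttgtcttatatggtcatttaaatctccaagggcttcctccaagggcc

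Asb2 had 9.50, 9.42, 9.37 and 3.07 FPKM in conditioned-medium replicates 1 to 4, against 14.3, 17.8, 13.7 and 15.9 FPKM in control replicates 1 to 4. All 4 conditioned-medium libraries lay below all 4 control libraries, and conditioned-medium replicates 1 to 3 lay close together (9.43 ± 0.0658 FPKM, SD, n = 3). Across all genes, 1.46% lay lower in this way with all 8 libraries and 1.52% without conditioned-medium replicate 4, and 1 of the 10 ligases, Asb2, did so in both cases. The mean was 7.84 ± 3.18 FPKM in conditioned medium and 15.4 ± 1.83 FPKM in control medium (SD, n = 4 each), a ratio of 0.508. The log2 fold change was -0.99 (SE 0.29), and -0.65 (SE 0.12) without conditioned-medium replicate 4. Centred in each library on the mean of the cardiomyocyte markers, it was -0.55. Rescaled to equal totals over nuclear-encoded genes, Asb2 had 9.10, 9.01, 8.61 and 4.38 FPKM in conditioned medium, against 13.4, 17.2, 13.6 and 15.8 FPKM in control medium, and the groups again did not overlap. The share of all genes that lay lower in this way after rescaling was not counted.

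At the level of transcripts, the groups of Asb2-201 did not overlap and those of Asb2-204 did. The share of all 21301 transcripts whose groups do not overlap was not counted, so nothing is read from this. Asb2-201 had 8.0, 6.12, 7.45 and 0.894 FPKM in conditioned medium, against 11.5, 14.8, 13.9 and 11.1 FPKM in control medium. Asb2-204 had 4.01, 6.56, 5.115 and 2.60 FPKM in conditioned medium, against 8.03, 9.59, 4.16 and 10.15 FPKM in control medium, and control replicate 3 was the library that fell among those of the conditioned medium. Asb2-201 made up 66.6%, 48.3%, 59.3% and 25.6% of the summed transcript FPKM in conditioned medium and 59.0%, 60.7%, 77.0% and 52.2% in control medium. Conditioned-medium replicate 4 had the lowest share, and the shares of the other libraries overlapped between the media. The split of fragments between transcripts is an estimate, and the gene FPKM of Asb2 was 1.02 to 1.304 times what its listed transcripts give when weighted by length, so transcript levels are less certain than the gene level.

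Flnc and Flna, genes of filamins, a protein family that ASB2 targets, had log2 fold changes of opposite sign, and neither passed the test. Flnc, the filamin of striated muscle, had 82.75, 94.2, 95.0 and 28.1 FPKM in conditioned medium, against 103.9, 101.9, 139.7 and 119.4 FPKM in control medium (log2 fold change -0.76, SE 0.34, adjusted p = 0.517 with limma, and -0.35 without conditioned-medium replicate 4). For Flna, which many cell types express and which was added to this comparison after its values were seen, the log2 fold change was 0.45 (SE 0.22, adjusted p = 0.563 with limma).

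**Figure D1:**
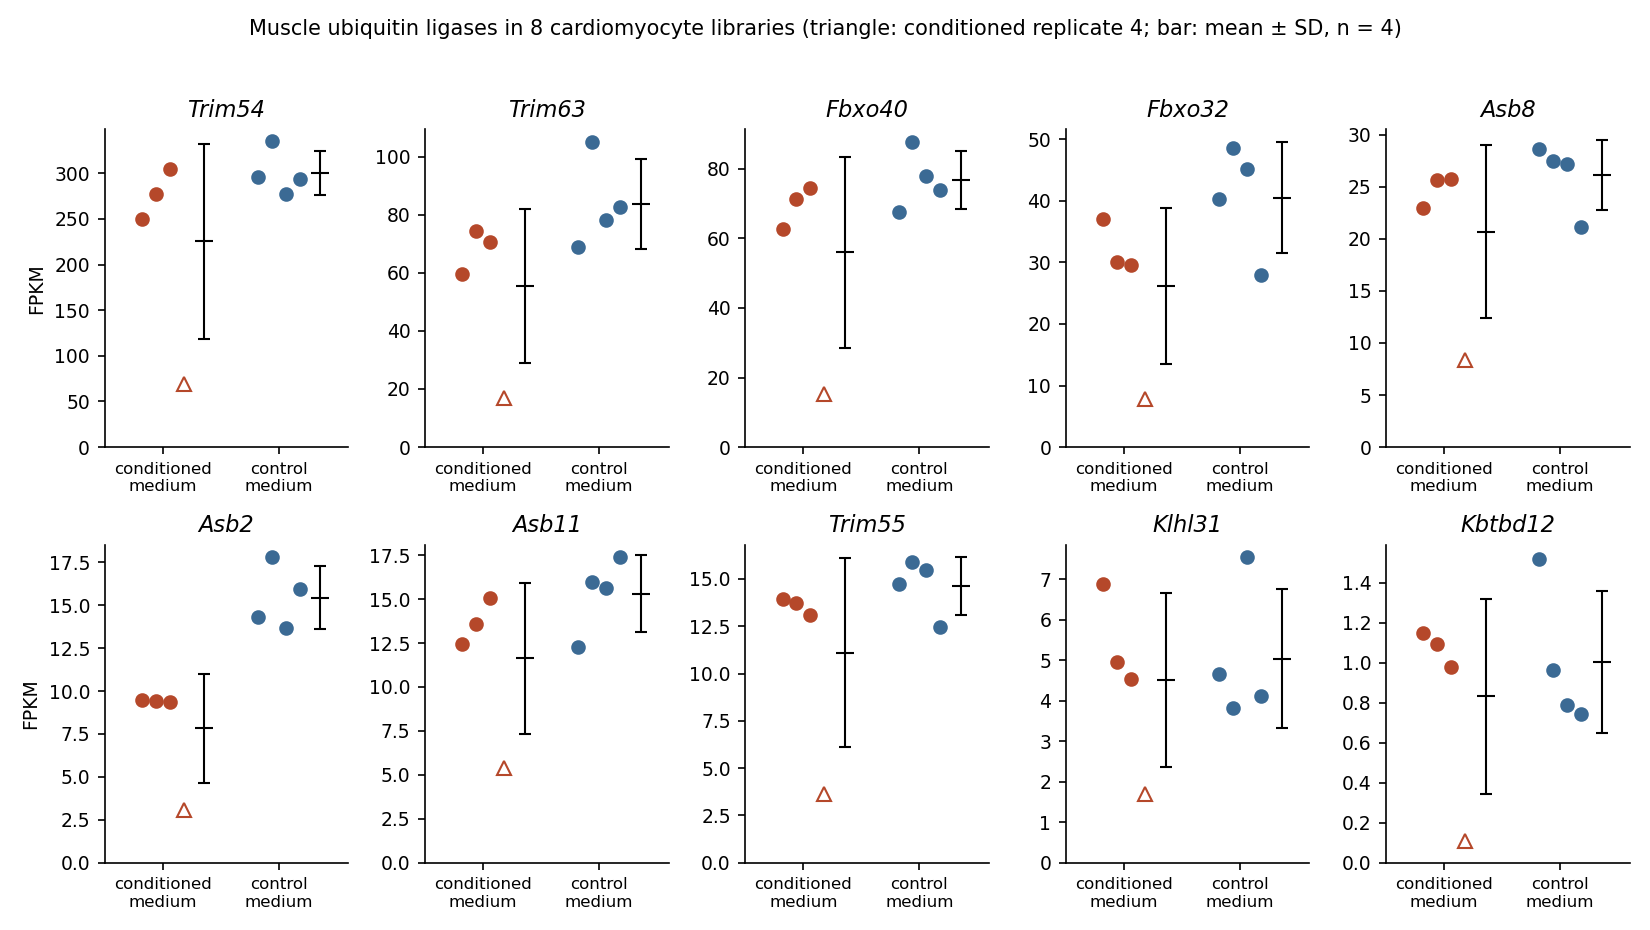
FPKM (y axis, from 0) of the 10 ligase genes in each library of conditioned medium and of control medium, in order of their control mean. Circles are single libraries, the open triangle is conditioned-medium replicate 4, and the bar beside each group is its mean ± SD (n = 4). The triangle is the lowest point in all 10 panels, and Asb2 is the gene whose 4 conditioned-medium libraries all lie below its control libraries.

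Asb8 and Asb11, the other ASB genes described here, lay close between the media apart from conditioned-medium replicate 4. Asb8 (chromosome 15, 98134637 to 98165625, minus strand) had 22.95, 25.65, 25.72 and 8.37 FPKM in conditioned medium, against 28.6, 27.5, 27.2 and 21.2 FPKM in control medium. Its conditioned-medium replicates 1 to 3 lay below control replicates 1 to 3 and above control replicate 4. The log2 fold change was -0.43 (SE 0.31), and -0.07 (SE 0.12) without conditioned-medium replicate 4. All 3 listed transcripts of Asb8 encode the same 288 residues.

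Asb11, whose zebrafish counterpart targets the Notch ligand DeltaA, lies on chromosome X at 164436994 to 164459170. It had 12.4, 13.6, 15.1 and 5.40 FPKM in conditioned medium, against 12.3, 16.0, 15.6 and 17.4 FPKM in control medium. Control replicate 1 lay below conditioned-medium replicates 1 to 3, and the other control libraries lay above them. Its log2 fold change was -0.44 (SE 0.27), and -0.14 (SE 0.14) without conditioned-medium replicate 4. Transcript Asb11-201 (294 residues) made up 65.8%, 72.0%, 71.5% and 41.8% of the transcript FPKM in conditioned medium and 78.9%, 72.0%, 69.8% and 83.6% in control medium, and Asb11-202 (323 residues) made up the rest. As with Asb2-201, the share was lowest in conditioned-medium replicate 4.

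Among the MuRF genes, Trim54 (MuRF3), which binds microtubules and the sarcomere, had the highest level of the 10 ligases, 300.6 ± 24.4 FPKM in control medium (SD, n = 4), above that of 99.1% of the measured genes. It lies on chromosome 5 at 31116712 to 31137630. It had 249.9, 277.5, 305.2 and 69.3 FPKM in conditioned medium, against 296.1, 335.1, 277.6 and 293.5 FPKM in control medium. Conditioned-medium replicates 1 and 2 lay below every control library, replicate 3 lay within the control range, and replicate 4 was at 25.0% of the mean of replicates 1 to 3. This gave a log2 fold change of -0.61 (SE 0.39), and -0.12 (SE 0.10) without that replicate.

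Trim63 (MuRF1), which in mouse muscle targets thick filament proteins such as myosin heavy and light chains, lies on chromosome 4 at 134315120 to 134329629. Its start is shown because it holds a match to the FoxO motif GTAAACA, the only one among the promoters found for 8 of the 10 ligases (none was found for Trim55 or Fbxo32), here on the opposite strand and in capitals, 194 bases before the start (RefSeq, GRCm38.p6).

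Trim63 start, chr4:134314870-134315119, plus strand, 5′ to 3′: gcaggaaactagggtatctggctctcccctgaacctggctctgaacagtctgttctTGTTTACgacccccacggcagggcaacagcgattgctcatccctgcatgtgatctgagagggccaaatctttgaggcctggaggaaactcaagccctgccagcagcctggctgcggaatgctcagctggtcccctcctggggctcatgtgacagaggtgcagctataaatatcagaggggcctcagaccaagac

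The level of Trim63 was 59.5, 74.4, 70.7 and 17.0 FPKM in conditioned medium, against 68.7, 105.0, 78.0 and 82.7 FPKM in control medium. Control replicate 1 lay below conditioned-medium replicates 2 and 3, and the other control libraries lay above all of the conditioned-medium libraries. On the log2 scale the fold change was -0.76 (SE 0.39), and -0.28 (SE 0.15) without conditioned-medium replicate 4. Trim55 (MuRF2), part of a signaling complex at titin in the sarcomere (chromosome 3, 19644474 to 19692421, plus strand), had 14.0, 13.7, 13.1 and 3.61 FPKM in conditioned medium, against 14.7, 15.9, 15.5 and 12.4 FPKM in control medium. Its conditioned-medium replicates 1 to 3 lay between control replicate 4 and the other control libraries. Between the media the log2 fold change was -0.51 (SE 0.34), and -0.09 (SE 0.12) without conditioned-medium replicate 4. Of the transcripts of the 10 genes, those of Trim54 and Trim63 shared the longest identical stretch, 28 bases.

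Transcripts of Trim54 and Trim63 differ by short stretches at an exon end. Trim54-202 differs from Trim54-201 by 6 bases at the start of exon 9, its last, and made up 18.3% of the Trim54 transcript FPKM in conditioned-medium replicate 4, against 0.988% to 2.06% in the other 7 libraries. Trim63-201 differs from Trim63-202 by 9 bases at exon 8. It was listed at 0 in 6 of the 8 libraries and at 72.6 FPKM in conditioned-medium replicate 2 and 63.7 FPKM in control replicate 1. No difference between the media is read from these estimates.

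**Figure D2:**
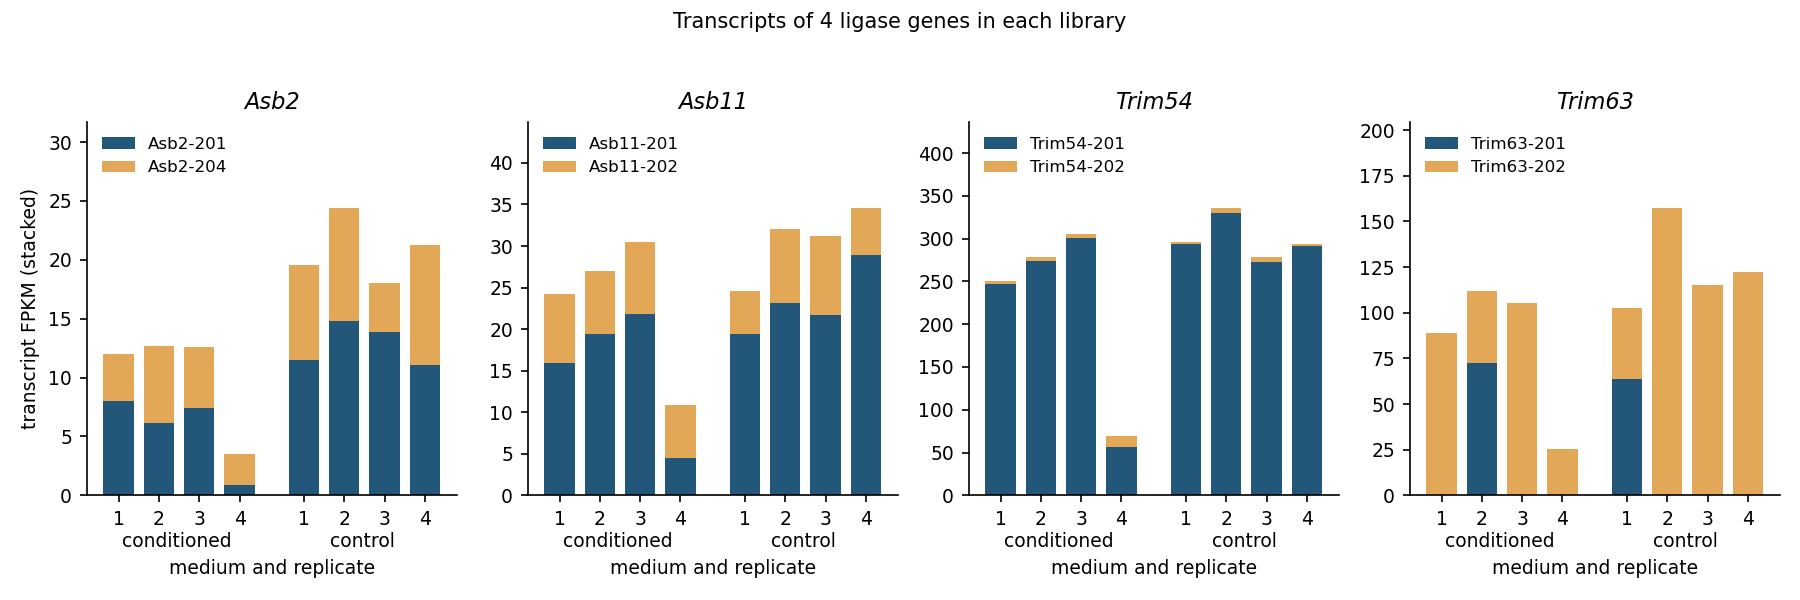
Transcript FPKM (y axis, from 0, stacked) of Asb2, Asb11, Trim54 and Trim63 in conditioned-medium replicates 1 to 4, on the left of each panel, and control replicates 1 to 4. Asb2-201 is lower in every conditioned-medium library than in any control library, the share of Trim54-202 is largest in conditioned-medium replicate 4, and Trim63-201 is listed above 0 in 2 libraries.

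The F-box genes Fbxo32 and Fbxo40 were also lowest in conditioned-medium replicate 4. Fbxo32 (atrogin-1; chromosome 15, 58175879 to 58214932, minus strand), whose known targets in the heart include the phosphatase calcineurin, had 37.0, 30.0, 29.6 and 7.80 FPKM in conditioned medium, against 40.3, 48.5, 45.2 and 27.9 FPKM in control medium. Control replicate 4 lay below conditioned-medium replicates 1 to 3, and control replicates 1 to 3 lay above them. The log2 fold change was -0.78 (SE 0.40), and -0.30 (SE 0.18) without conditioned-medium replicate 4. Fbxo40 (chromosome 16, 36963460 to 36990467, minus strand), which targets the insulin receptor substrate Irs1 in mouse skeletal muscle, had 62.7, 71.3, 74.5 and 15.3 FPKM in conditioned medium, against 67.6, 87.75, 77.8 and 74.0 FPKM in control medium. The ranges overlapped through control replicates 1 and 4. Its log2 fold change was -0.67 (SE 0.41), and -0.14 (SE 0.11) without conditioned-medium replicate 4.

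The BTB-kelch genes Klhl31 and Kbtbd12 had the lowest levels of the 10 and the widest spread between control libraries. Klhl31, whose loss in mice weakens skeletal muscle and raises filamin-C protein (chromosome 9, 77636500 to 77660127, plus strand), had 6.89, 4.97, 4.55 and 1.69 FPKM in conditioned medium, against 4.65, 3.82, 7.56 and 4.13 FPKM in control medium. Kbtbd12 (chromosome 6, 88545114 to 88637950, minus strand) had 1.15, 1.09, 0.979 and 0.107 FPKM in conditioned medium, against 1.52, 0.965, 0.788 and 0.744 FPKM in control medium. For both genes the conditioned-medium replicates 1 to 3 lay inside the range of the control libraries. The log2 fold changes were -0.19 (SE 0.31) for Klhl31 and -0.16 (SE 0.21) for Kbtbd12, and the signs turned without conditioned-medium replicate 4, to 0.12 (SE 0.22) and 0.06 (SE 0.15). At levels near 1 FPKM the log2(FPKM + 1) scale understates ratios, and the gene FPKM of Kbtbd12 was 1.13 to 1.92 times what its listed transcript gives when weighted by length.

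**Figure D3:**
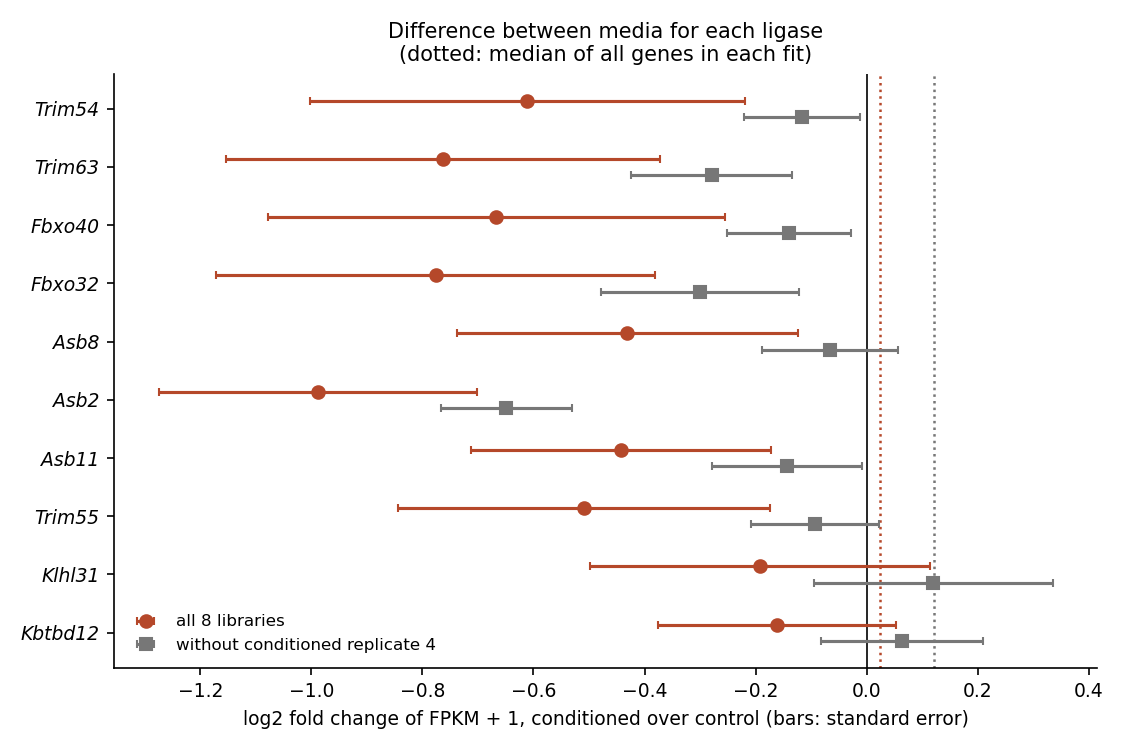
Log2 fold change of FPKM + 1 (x axis, conditioned over control medium) for each ligase, with its standard error, from all 8 libraries (circles) and without conditioned-medium replicate 4 (squares). Dotted lines mark the median of all genes in each fit, 0.02 and 0.12. All 10 circles lie below 0, and the squares of Klhl31 and Kbtbd12 lie above 0.

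In control medium the levels ran from Trim54 (300.6 FPKM) through Trim63 (83.6), Fbxo40 (76.8), Fbxo32 (40.5), Asb8 (26.1), Asb2 (15.4), Asb11 (15.3), Trim55 (14.6) and Klhl31 (5.04) to Kbtbd12 (1.004), as means of 4 libraries. The control ranges of Trim63 and Fbxo40 overlapped, as did those of Fbxo32 and Asb8, of Asb2 and Asb11, and of Asb11 and Trim55, so these neighbours in the order were not separated by the spread between libraries. The ranges of all other neighbours did not overlap. The coefficient of variation over the control libraries was lowest for Trim54, at 8.13%, and highest for Kbtbd12, at 35.4%.

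With all 8 libraries the 10 ligases had a median log2 fold change of -0.56, and all 10 were below 0, beside a median of 0.02 and 46.1% of genes below 0 over all genes. At an adjusted p under 0.05, limma called 0 of the 10 lower, beside 0.0% of all genes called lower and 0.554% called higher. An unadjusted p under 0.05 was reached by 1 of the 10, Asb2, and by 96 genes lower and 998 higher in all, and the per-gene F test that Ballgown describes called 0 genes. Without conditioned-medium replicate 4 the median of the ligases was -0.13 with 8 below 0, beside 0.12 and 23.3% over all genes. That fit called 1 of the 10 lower, Asb2, beside 0.0176% of all genes lower, which are Asb2 and Zfp180, and 0.757% higher. The members were picked with this contrast known, so these counts are given as they are and nothing is read from them.

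Conditioned-medium replicate 4 was the lowest library for all 10 genes. The ligases stood there at a median of 25.8% (9.95% to 39.4%) of their mean in conditioned-medium replicates 1 to 3, beside 45.2% (21.1% to 71.4%) for the cardiomyocyte markers and a median of 68.6% for all genes. Rescaled to equal totals over nuclear-encoded genes, they stood at 15.0% (Kbtbd12) to 59.6% (Asb11). Summed over the 10 genes, the library held 131.7 FPKM, against 476.0 to 548.8 FPKM in conditioned-medium replicates 1 to 3 and 548.8 to 658.3 FPKM in control libraries. What sets this library apart was not tested.

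**Figure D4:**
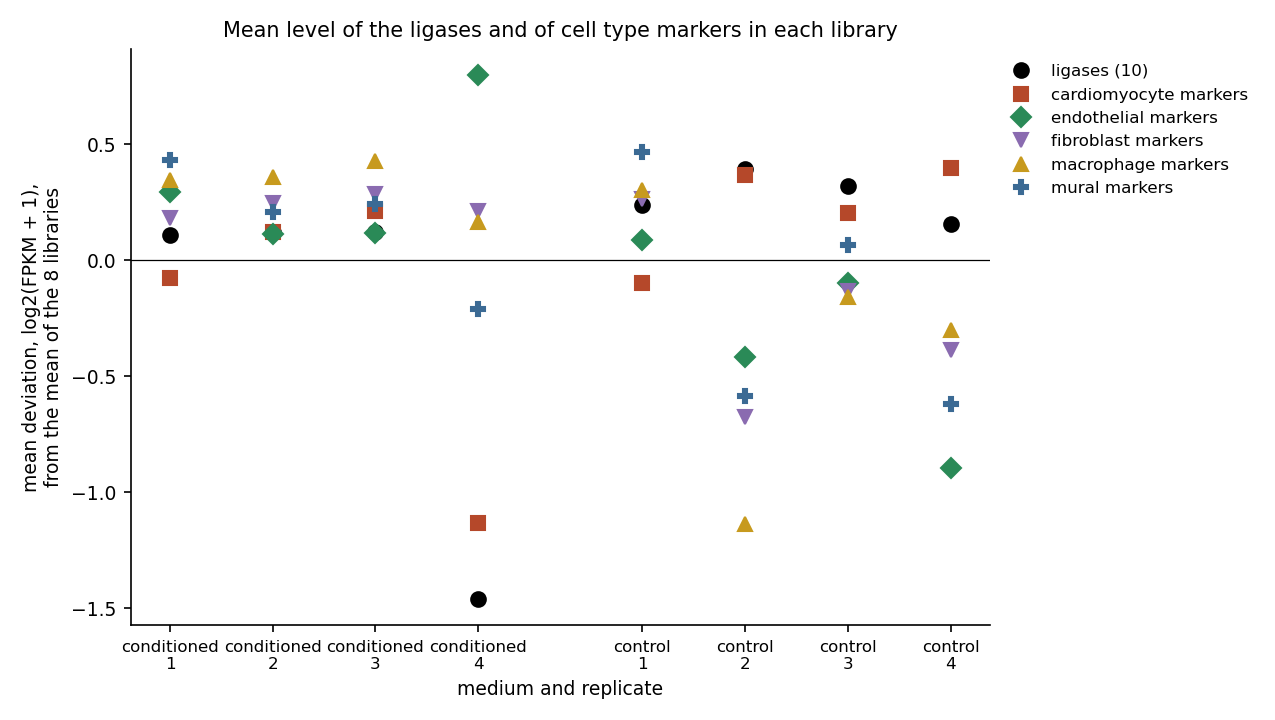
Mean deviation of log2(FPKM + 1) from the mean of the 8 libraries (y axis) for the 10 ligases and for the markers of 5 cell types, in each library (x axis, conditioned medium on the left). In conditioned-medium replicate 4 the ligases lie at -1.46, the cardiomyocyte markers at -1.13 and the endothelial markers at 0.80.

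Marker levels of cell types differed between libraries as well. The 26 cardiomyocyte markers had a median log2 fold change of -0.43 with 25 below 0, and -0.11 without conditioned-medium replicate 4, and limma called 0 of them (1 lower at an unadjusted p under 0.05). With each library centred on these markers, the median of the ligases was -0.12, beside 0.46 over all genes. The 16 endothelial markers summed to 297.5 to 538.1 FPKM in conditioned medium, highest in replicate 4, and to 134.2 to 291.2 FPKM in control medium. Their median log2 fold change was 0.70, and 0.55 without conditioned-medium replicate 4, and limma called 0 of them (12 higher at an unadjusted p under 0.05). The 16 fibroblast markers summed to 77.75 to 93.2 FPKM in conditioned medium and to 32.4 to 83.1 FPKM in control medium, and Dcn, a collagen-binding proteoglycan gene, rose (log2 fold change 1.22, SE 0.225, adjusted p = 0.0336 with limma, and 0.0563 without conditioned-medium replicate 4, where Lum had 0.0396). Of the 16 fibroblast markers, 15 had log2 fold changes above 0 (median 0.39, and 0.37 without conditioned-medium replicate 4). With limma, 4 of them were higher at an unadjusted p under 0.05. Macrophage markers, 12 measured of 16, summed to 160.4 to 176.4 FPKM in conditioned medium and to 24.7 to 183.7 FPKM in control medium, and 1 of the 2 entries of Itgam was listed at 0 in at least 1 library. With all 8 libraries, all 13 macrophage entries had log2 fold changes above 0 (median 0.55, and 0.61 without conditioned-medium replicate 4). Of these, limma called 0 (4 higher at an unadjusted p under 0.05). Mural markers, 10 measured of 11, summed to 85.7 to 154.6 FPKM in conditioned medium and to 120.3 to 189.8 FPKM in control medium, but 8 of the 10 had log2 fold changes above 0 (median 0.48, and 0.45 without conditioned-medium replicate 4), and limma called 0 (unadjusted, 3 higher and 1 lower). The most abundant of them, Acta2, averaged 74.9 ± 25.6 FPKM in conditioned medium and 110.7 ± 23.6 FPKM in control medium (SD, n = 4 each). The part of these markers in the levels of the ligases was not tested.

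The profiles of the ligases over the 8 libraries were compared by the root mean square difference of their log2(FPKM + 1), each centred on its mean. The nearest pair was Trim54 and Fbxo40 (0.09), followed by Trim63 and Fbxo40 (0.11) and Asb8 and Trim55 (0.11), and the farthest was Trim63 and Klhl31 (0.53). These pairs cross the families. The next nearest, Trim54 with Trim63 (0.14) and Trim54 with Trim55 (0.17), lie within the MuRF genes. Conditioned-medium replicate 4, in which every member was lowest, enters all of these values.

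Of 5528 other genes with a mean of at least 5 FPKM, the nearest to Asb2 were Slc2a4 (0.15), the insulin-responsive glucose transporter GLUT4, Akap1 (0.16), which anchors protein kinase A at mitochondria, Vldlr (0.17), Gpc1 (0.19) and Adprhl1 (0.19). Their log2 fold changes were -0.63 (Adprhl1) to -0.93 (Vldlr), and -0.31 (Adprhl1) to -0.50 (Akap1) without conditioned-medium replicate 4. Nearest to Fbxo32 were Rbm20 (0.13), a splicing regulator of titin, Ppp1r14c (0.15), Cand2 (0.16), Mreg (0.16) and Acacb (0.16). The mean of the 10 ligases was closest to Palld (0.06), which encodes the actin-associated protein palladin, Dlat (0.06) and Dld (0.08), which encode subunits of the pyruvate dehydrogenase complex, Ehd4 (0.07) and Actn2 (0.07), the sarcomeric alpha-actinin and a cardiomyocyte marker.

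The partners that the ligases work with were described by lists. Of 33 genes of the cullin scaffolds, their adaptors and their control by NEDD8 and the COP9 signalosome, limma called 0 (0 at an unadjusted p under 0.05), and the median was -0.12, or 0.05 without conditioned-medium replicate 4. Cul5, the scaffold for ASB proteins, named for that role after its values were seen, had 11.3, 11.2, 10.7 and 5.07 FPKM in conditioned medium, against 12.04, 11.3, 11.4 and 8.71 FPKM in control medium. Cul3, the scaffold for BTB-kelch proteins, had a log2 fold change of -0.31, and -0.055 without conditioned-medium replicate 4. Ubiquitin genes and the E1 and E2 enzymes, 32 measured, had a median of -0.12, or -0.01 without conditioned-medium replicate 4, and limma called 0 (0 at an unadjusted p under 0.05).

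Relatives of the ligases gave the following values. Other ASB genes, 11 measured of 15, had a median of -0.11, or 0.06 without conditioned-medium replicate 4, and limma called 0 (0 at an unadjusted p under 0.05). Asb5, the most abundant of them, had 32.6, 32.9, 34.45 and 3.86 FPKM in conditioned medium, against 25.7, 23.8, 17.4 and 24.7 FPKM in control medium. Its conditioned-medium replicates 1 to 3 lay above every control library and replicate 4 below every one, so the sign turned on a single library. The log2 fold change was -0.17, and 0.54 without that library, where the adjusted p was 0.19 with limma and the median of all genes was 0.12. The share of all genes whose conditioned-medium replicates 1 to 3 lay above every control library was not counted, so nothing is read from this order. Other BTB-kelch genes, 11 measured of 13, had a median of -0.25, or 0.08 without conditioned-medium replicate 4, and limma called 0 (0 at an unadjusted p under 0.05). Among 33 other ligases named in muscle wasting or heart, the median was -0.06, or 0.08 without conditioned-medium replicate 4, and limma called 0 (unadjusted, 0 higher and 1 lower). The smallest p was that of Mul1, a mitochondrial ligase, with 4.31, 4.37, 5.51 and 4.46 FPKM in conditioned medium, against 8.94, 8.89, 4.92 and 8.22 FPKM in control medium (log2 fold change -0.60, SE 0.20, adjusted p = 0.357 with limma, and -0.59 without conditioned-medium replicate 4).

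**Figure D5:**
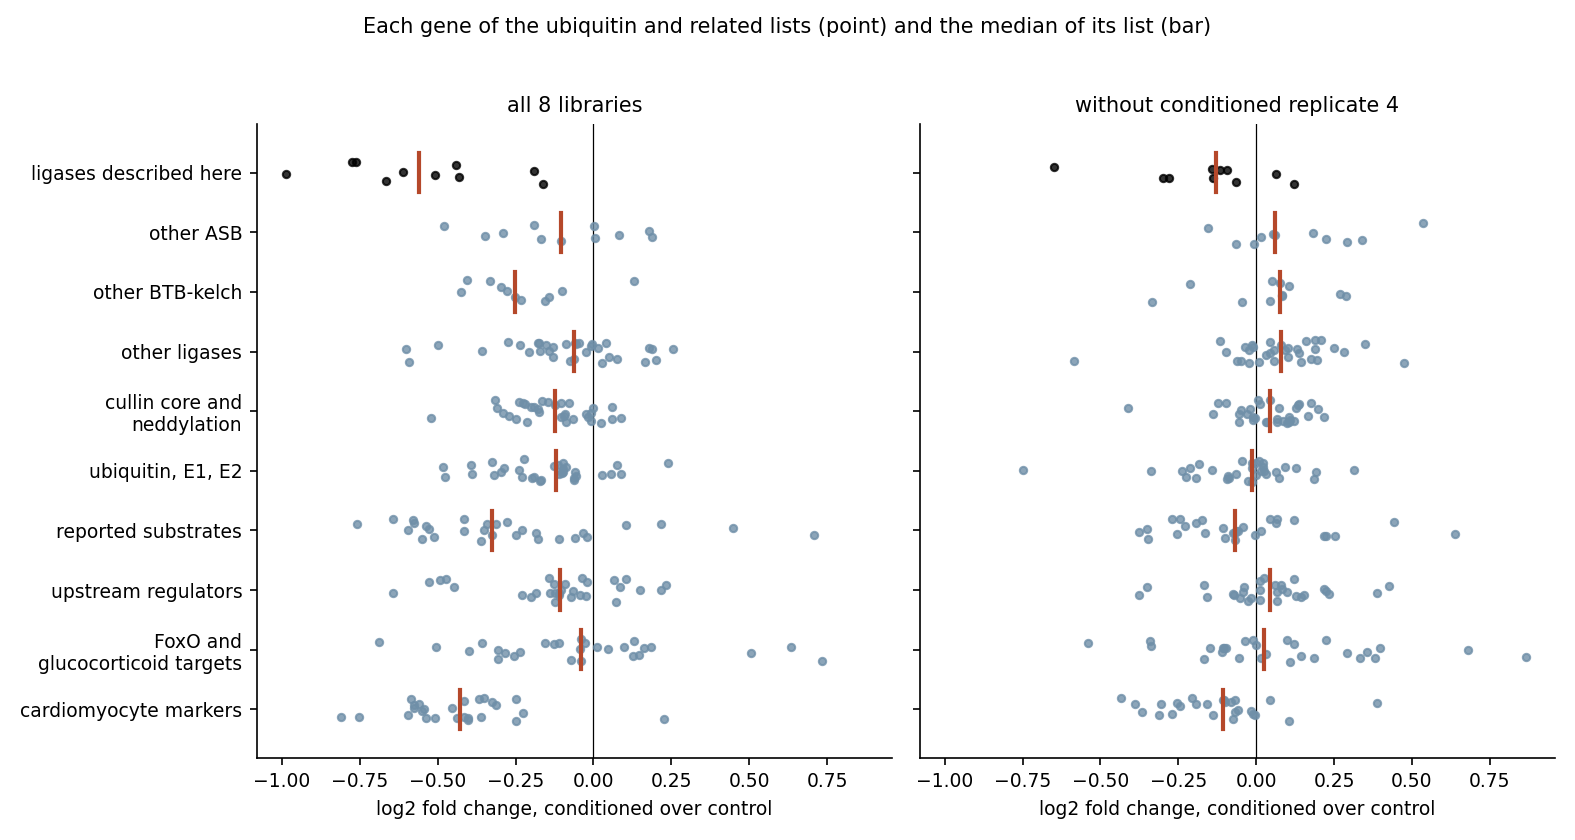
Log2 fold change (x axis, conditioned over control medium) of each gene in the ubiquitin and related lists (points; rows) and the median of each list (bar), from all 8 libraries on the left and without conditioned-medium replicate 4 on the right. The bar of the 10 ligases lies at -0.56 on the left and at -0.13 on the right, and that of the cardiomyocyte markers at -0.43 and -0.11.

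Genes upstream and downstream of the ligases were described in the same way. Reported substrates, 29 genes of which 10 are also cardiomyocyte markers and 7 are also upstream regulators, had a median of -0.33, or -0.07 without conditioned-medium replicate 4, and limma called 0 (unadjusted, 1 higher and 3 lower). Upstream regulators, 30 measured of 33, had a median of -0.11, or 0.04 without conditioned-medium replicate 4, and limma called 0 (unadjusted, 0 higher and 2 lower). Srf, which is on both lists and whose protein binds the CArG box, had 9.18 to 16.7 FPKM in conditioned medium and 17.3 to 21.7 FPKM in control medium (log2 fold change -0.53, SE 0.20, adjusted p = 0.445 with limma, and -0.35 without conditioned-medium replicate 4). Foxo1 had a log2 fold change of 0.22 and Foxo3 of -0.18, both named for their roles after their values were seen. Of 28 other FoxO and glucocorticoid target genes, limma called 0 (unadjusted, 2 higher and 3 lower), and the median was -0.04, or 0.02 without conditioned-medium replicate 4. Cebpd, a glucocorticoid target and the gene of smallest p on this list, had 2.32 to 3.38 FPKM in conditioned medium and 0.895 to 2.30 FPKM in control medium (log2 fold change 0.63, SE 0.19, adjusted p = 0.297 with limma, and 0.68 without conditioned-medium replicate 4). Sesn1, a FoxO target, had 10.9 to 18.9 FPKM in conditioned medium and 17.4 to 33.4 FPKM in control medium (log2 fold change -0.69, SE 0.23, adjusted p = 0.365 with limma, and -0.54 without conditioned-medium replicate 4).

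RefSeq promoters, from 250 bases before to 50 bases after a start, were found for 8 of the 10 ligases, with 11 entries in all, and were searched on both strands. No entry was matched for Trim55 or Fbxo32. The E-box CANNTG was present in 8 of the 11 entries, beside 72.3% of all 32851 promoters. The MEF2 consensus, which holds the letters of the TATA motif TATAAA on the opposite strand in Kbtbd12, was present in 2 entries (Fbxo40 and Kbtbd12), beside 3.19% of all. The MCAT motif CATTCC was present in 3 (Asb8, Trim54 and Trim63), beside 14.7%, the TATA motif in 2 (Kbtbd12 and Trim63), beside 13.6%, the FoxO motif in 1 (Trim63), beside 3.65%, and the CArG consensus in 1 (Asb2), beside 1.63%. GATAA was in 0 of the 11, beside 25.4%. A match describes letters only and shows neither binding nor use in these cells.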

How the data were processed

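Total RNA of 8 cardiomyocyte samples was sequenced with a stranded kit. The authors used cutadapt to trim adaptors, Hisat2 to align to GRCm38, StringTie for transcript abundance and Ballgown for the deposited gene and transcript FPKM. For these tools no version, and no annotation release, is given in the sources used here. The gene table had been limited to genes whose larger group mean was 0.5001 FPKM or more, 1 line without an entry was left out, and no further filter was applied. FPKM carry no read totals, so depth is unknown and only the spread between libraries gives precision.

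Conditioned and control medium were compared with limma 3.58.1 (R 4.3.3) on log2(FPKM + 1), with an intensity trend, two-sided p values and Benjamini-Hochberg adjustment over 11367 genes. Fold changes on this scale understate those of low genes. The 10 ligases and all lists were chosen with earlier results of these data known. Genes named beside the ligases are taken, per list, from those called or else up to 4 of smallest p, and the most abundant, with the 5 nearest profiles to Asb2, Fbxo32 and the mean of the ligases. Outside this rule, Lum and Zfp180 are named because they were called without conditioned-medium replicate 4, and Itgam because it has 2 entries. The text says where another gene was picked outside the rule. Alternatives were a pseudocount of 0.1, a filter at 1 FPKM, 4 scalings, the Ballgown F test, array weights, a replicate block, summed transcripts and each library left out. Of 4 same-numbered pairs of libraries, 1 had correlated deviations over 0.1, so numbers were not taken as pairing. Transcript models were those of GENCODE M21 and promoters those of RefSeq (GRCm38.p6). Protein sequences were not analysed here. The limma step was tested on simulated data.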

Additional observations from a re-analysis of the deposited data

Results flagged for a closer look

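Conditioned-medium replicate 4 lay far below the other 3 libraries of its group for 4 of the 10 ligases, by the size of its gap relative to the range of the group. It held 3.07 FPKM of Asb2, 8.37 FPKM of Asb8, 3.61 FPKM of Trim55 and 0.107 FPKM of Kbtbd12. Of 20 groups tested (10 genes in each medium), these 4 were picked out. Chance alone picks about 1 in 20 independent groups, but these groups share the same libraries, so that rate does not apply to them. All 4 were among the 10 groups of conditioned medium and in this 1 library. By the same measure, that library lay below the rest of its group for 15.9% of all 11367 genes. The same library had 63.0% of its summed FPKM from mitochondrially encoded genes. Whether that share bears on the levels of the ligases was not tested.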

How the results depend on the processing

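The median log2 fold change of the 10 ligases stayed below 0 in all 18 alternatives, from -0.81 (Ballgown F test) to -0.12 (centred on the cardiomyocyte markers), with -0.51 to -0.73 when any library other than conditioned-medium replicate 4 was left out and -0.13 without that library. The count of ligases called lower by limma was 0 with all 8 libraries, 1 (Asb2) with array weights and 0 to 1 with 1 library left out, where the 1 came without conditioned-medium replicate 4. Beside these stand 51 of all 11367 genes called lower with array weights and 2 (0.0176%) without conditioned-medium replicate 4. The ligases were picked with this contrast known, so nothing is read from these counts. The count of genes called higher was 63, against 0 with the Ballgown F test and 882 with array weights, and it ran from 31 (without control replicate 2) to 110 (without control replicate 1) with 1 library left out. It was 35, 40 and 41 without conditioned-medium replicates 1, 2 and 3, and 39 without control replicate 4. The count called lower was 0, against 51 with array weights, 2 with quantile normalization, 1 each with a pseudocount of 0.1, median-of-ratios scaling and summed transcripts, and 0 to 2 with 1 library left out (2 without conditioned-medium replicate 4). The fit with replicate number as a block called 69 genes higher and 0 lower and 0 ligases lower; of 4 same-numbered pairs, 1 was over 0.1 in correlation and 1 library was closest to its own number. Of 179 values of single ligases over the alternatives, 1 moved by more than the spread between libraries. That spread includes conditioned-medium replicate 4, which widens it, so this count says little about how far values move without that library. Trim54, for example, had a spread of 0.71 and moved from -0.61 to -0.12 when that library was left out. Of the 179 values, 6 turned in sign. Centred on the cardiomyocyte markers, Kbtbd12 had 0.27, Klhl31 0.24 and Asb8 0.005, Kbtbd12 had 0.11 with array weights, and without conditioned-medium replicate 4 Kbtbd12 had 0.06 and Klhl31 0.12. The cause was not tested. Without read totals, the counting error of low genes such as Kbtbd12 is unknown. Asb2 stayed between -1.14 and -0.55 in every alternative.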
